A study of Homo sapiens with 12 samples.

Results

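The 10 genes described here belong to the TGF-beta and BMP pathways and were measured in A549 and PC9 cells that carried HOXC6 or an empty vector. The ligands are *TGFB1*, *TGFB2*, *INHBA*, *BMP4* and *BMP7*, and the receptor is *TGFBR2*. *SMAD3* is a signal transducer, *SMAD7* an inhibitory SMAD, and *ID1* and *ID3* are target genes. The 10 genes were taken by their Ensembl identifiers, and all were among the 12584 genes of the count table. A549 and PC9 are human lung adenocarcinoma cell lines. HOXC6 is a homeodomain transcription factor, and the study asked which genes it changes in these cells. Each line had been stably infected with the lentiviral vector pCDH-HOXC6 or with the empty vector pCDH-NEO and selected with neomycin, so that all 4 groups (A549-NEO, A549-HOXC6, PC9-NEO and PC9-HOXC6) were infected and selected cells. Polyadenylated RNA was sequenced from 3 libraries of each group, 12 in all. The A549 cells were kept in an RPMI medium and the PC9 cells in DMEM, so cell line and medium cannot be told apart. The study calls the 3 libraries of a group independent replicates, but whether that means separate cultures, and whether the infected cells were pools or clones, is not given in the sources used here. The p-values therefore measure the spread between these libraries only, which may be technical.

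Ligands of the TGF-beta family bind pairs of type I and type II receptor kinases on the cell surface, which phosphorylate SMAD proteins that then enter the nucleus with SMAD4. TGF-betas and activins signal mainly through SMAD2 and SMAD3, and BMPs through SMAD1, SMAD5 and SMAD9, whose classical direct targets are the *ID* genes. In epithelial cells the TGF-beta arm is known for growth arrest and, in carcinoma cells, for migration and loss of epithelial features, and SMAD7 is an inhibitor that the pathway itself induces.

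The libraries held 1212053 to 3286577 counts, so that 3 counts, taken here as the floor of detection, correspond to between 0.913 and 2.55 CPM (counts scaled to a common library size). The table holds only part of the genes, and *HOXC6* itself was not analysed here, so the labels could not be checked on it. Of 8 epithelial markers, 4 were in the table and none was at the floor. Their summed level was 7816 to 8051 CPM in A549-NEO, 9269 to 11575 in A549-HOXC6, 10831 to 11661 in PC9-NEO and 10663 to 10962 in PC9-HOXC6. That level was mostly the keratins *KRT7* and *KRT18* and did not overlap between the A549 groups. In A549, *KRT7* and *KRT18* rose with HOXC6 (log2 fold change 0.29 and 0.58), *CDH1* fell (-0.43, adjusted p = 0.00305 with edgeR) and *EPCAM* did not pass. Between lines, *EPCAM* stood at 5.78 ± 1.13 CPM in A549-NEO beside 196 ± 11.8 CPM in PC9-NEO, *CDH1* and *KRT18* were also lower in A549-NEO, and *KRT7* was higher (6533 beside 4819 CPM). The part of these markers in the results was not tested. The 7 lung lineage markers, such as *NKX2-1* and the surfactant genes, were near 0 in every group, with summed levels of 4.83 to 11.2 CPM. Summed fibroblast markers were 56.3 to 77.8 CPM in A549 and 19.5 to 39.4 CPM in PC9. That level was mostly the collagen gene *COL1A1* (67.8 ± 1.11 CPM in A549-NEO and 24.8 ± 7.05 CPM in PC9-NEO). Of the 7 fibroblast markers, 5 were at the floor in A549-NEO, 3 in A549-HOXC6 and 6 in each PC9 group. Summed leukocyte markers (3 of 5 in the table) were 10.1 to 11.9 CPM in A549-NEO, 15.3 to 24.5 in A549-HOXC6, 6.45 to 13.6 in PC9-NEO and 11.7 to 15.4 in PC9-HOXC6, mostly *CD68*, which rose in A549 (log2 fold change 0.99, adjusted p = 0.00443 with edgeR). *PTPRC*, the defining marker of leukocytes, had at most 4 counts in any library. Summed endothelial markers (3 of 5 in the table) reached at most 6.39 CPM. Across all genes tested, the log2 fold change with HOXC6 followed the GC content of the gene (Spearman 0.53 over 8712 genes in A549 and 0.53 over 8360 in PC9). The 10 genes range from 41.4% to 62.1% GC. Values from libraries corrected for trends with GC content and gene length (the GC correction) were taken for them and for *GDF15*, *GREM1*, *THBS1*, *BAMBI*, *CTGF* and *SKIL*. The corrected values are given below wherever they end a call of these genes. For all other genes named, and for counts of other listed genes, no corrected values were taken, so those calls were not checked in this way.

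Most of these genes differed between the 2 lines that carried the empty vector. In A549-NEO against PC9-NEO (edgeR's quasi-likelihood test over 12 libraries, Benjamini-Hochberg adjustment), 7 of the 10 genes were higher and 2 were lower in A549-NEO at an adjusted p under 0.05, where 34.6% of all 9229 genes tested were higher and 36.4% lower (71% in all). The same 7 and 2 genes had NEO libraries that did not overlap between the lines, which held for 36.6% and 37.7% of all genes (74.4% in all). These counts include *BMP7* (higher) and *INHBA* (lower), each at the floor in the other line. Both passed the filter on low counts only through the line where they were high. Their calls and lack of overlap were therefore all but fixed in advance and are no support. The median log2 difference was 1.23 over the 10 genes and -0.02 over all genes. In a bulk sample, fewer cells with a transcript and less of it per cell cannot be told apart.

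**Figure D1:**
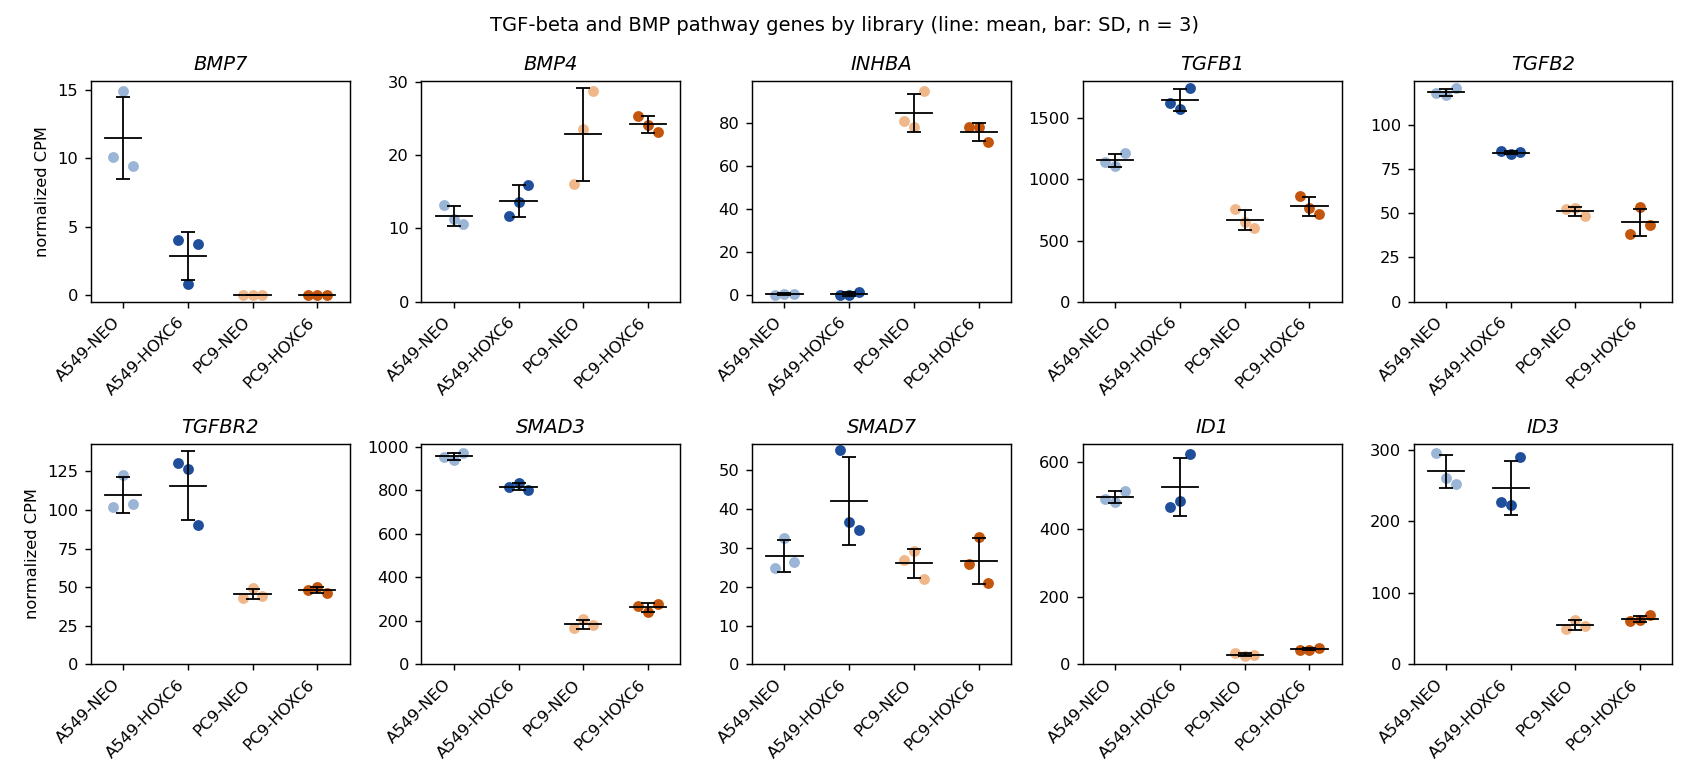
Normalized CPM (vertical axis, 1 scale per gene) of the 10 genes in each of the 12 libraries, with the mean (line) and SD (bar) of the 3 libraries of each group on the horizontal axis. *BMP7* is at 0 in the PC9 libraries and *INHBA* at or near 0 in the A549 libraries, while *SMAD3*, *ID1* and *ID3* lie far higher in A549 than in PC9.

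*TGFB1* (ENSG00000105329, chromosome 19, 41807492 to 41859827, minus strand, GRCh37, 7 exons) encodes the ligand TGF-beta 1. Its level was 1144, 1114 and 1215 CPM in the 3 A549-NEO libraries and 1627, 1578 and 1748 CPM in the A549-HOXC6 libraries. Every A549-HOXC6 library lay above every A549-NEO library, and the mean rose from 1158 ± 52.1 to 1651 ± 87.2 CPM (SD, n = 3; log2 fold change 0.47, SE 0.0683, adjusted p = 3.84e-06 with edgeR). In PC9 the levels were 757, 650.4 and 599 CPM with the empty vector and 867, 765 and 714 CPM with HOXC6. These groups overlapped, and the rise was smaller (log2 fold change 0.23, SE 0.0756, adjusted p = 0.0221 with edgeR). The rise in PC9 did not pass after the GC correction (0.09, adjusted p = 0.446 with edgeR), and *TGFB1* has the highest GC content of the 10 genes. Nor did it pass without PC9-NEO replicate 2, where the log2 fold change was about as large (0.21, adjusted p = 0.105), without PC9-NEO replicate 3 (0.15, adjusted p = 0.161) or without PC9-HOXC6 replicate 1 (0.16, adjusted p = 0.187), in fits with edgeR. The change in A549 minus that in PC9 was 0.29 (95% interval 0.07 to 0.51, adjusted p = 0.0585 with edgeR), short of the threshold. It passed without A549-HOXC6 replicate 2 (0.33, adjusted p = 0.0441), without PC9-NEO replicate 3 (0.36, adjusted p = 0.0224) and without PC9-HOXC6 replicate 1 (0.37, adjusted p = 0.0220), in fits with edgeR. *TGFB1* was higher in A549-NEO than in PC9-NEO (log2 difference 0.79, SE 0.0788).

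*TGFB2* (ENSG00000092969, chromosome 1, 218518678 to 218617961, plus strand, 7 exons), which encodes TGF-beta 2, went the other way in A549. The A549-NEO libraries gave 118, 117 and 121 CPM and the A549-HOXC6 libraries 85.1, 83.4 and 84.7 CPM. The groups did not overlap, and the gene fell (log2 fold change -0.53, SE 0.110, adjusted p = 0.000419 with edgeR). This fall did not pass after the GC correction (-0.22, adjusted p = 0.105 with edgeR), and *TGFB2* is among the genes of lowest GC content here, at 42.3%. In PC9 the gene stood at 52.2, 53.2 and 48.3 CPM with the empty vector and at 38.4, 53.5 and 43.2 CPM with HOXC6. The PC9 groups overlapped and did not pass (-0.21, 95% interval -0.50 to 0.08, adjusted p = 0.318 with edgeR). The change did not differ detectably between the lines (difference -0.27, adjusted p = 0.314 with edgeR). *TGFB2* was higher in A549-NEO than in PC9-NEO (log2 difference 1.20, SE 0.120).

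*INHBA* (ENSG00000122641, chromosome 7, 41706766 to 41745432, minus strand, 3 exons) encodes the beta A subunit from which activin A is made, and it was detected above the floor in PC9 only. The A549 libraries held 0, 1 and 2 counts with the empty vector and 0, 0 and 3 counts with HOXC6, all at or under the floor. The PC9 libraries held 151, 156 and 224 counts with the empty vector and 163, 107 and 234 counts with HOXC6. PC9-NEO was at least 74.1-fold higher than A549-NEO, with the A549 libraries set at 3 counts each. In PC9 the levels were 81.2, 78.4 and 94.8 CPM with the empty vector and 78.2, 78.3 and 71.2 CPM with HOXC6. Every HOXC6 library lay below every NEO library, but by little, and the difference did not pass (log2 fold change -0.17, 95% interval -0.40 to 0.05, adjusted p = 0.283 with edgeR).

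*BMP7* (ENSG00000101144, chromosome 20, 55743809 to 55841697, minus strand, 7 exons) showed the opposite pattern. It encodes a BMP ligand known from kidney and bone development. The 3 A549-NEO libraries held 29, 37 and 24 counts, the A549-HOXC6 libraries 11, 1 and 7 counts, and all 6 PC9 libraries 0. Scaled to CPM, the A549-NEO libraries stood at 10.1, 14.9 and 9.44 and the A549-HOXC6 libraries at 4.02, 0.851 and 3.73. Every A549-HOXC6 library lay below every A549-NEO library. The gene fell with a log2 fold change of -1.85 (SE 0.406, 95% interval -2.64 to -1.05, adjusted p = 0.000682 with edgeR) and was the only one of the 10 that also passed a log2 fold change of 1 in either direction in either line. In A549, 5.51% of all genes tested passed that threshold downward and 7.21% in all, beside 3.56% and 4.53% in PC9. Its counts are low, and in the main fit it passed the filter on low counts only through A549-NEO, the group where it was high. The call held under every alternative that tested the gene, with values from -2.16 to -1.59. Since being tested depended on the high group, this is not independent support for the fall. The alternative with at least 10 counts in every library left *BMP7* out, so it gives no check of the low counts. With the PC9 libraries set at 3 counts each, A549-NEO was at least 7.85-fold higher than PC9-NEO.

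*BMP4* (ENSG00000125378, chromosome 14, 54416454 to 54425479, minus strand, 4 exons), also a BMP ligand, did not pass in either line. It stood at 13.2, 11.3 and 10.6 CPM in A549-NEO and at 11.7, 13.6 and 16.0 CPM in A549-HOXC6, which overlapped (log2 fold change 0.17, 95% interval -0.36 to 0.70). In PC9 it stood at 16.1, 23.6 and 28.8 CPM with the empty vector and at 25.4, 24.2 and 23.1 CPM with HOXC6, again overlapping (0.06, 95% interval -0.35 to 0.48). The direction of both values turned after the GC correction. Like *INHBA*, *BMP4* was lower in A549-NEO than in PC9-NEO (log2 difference -0.98, SE 0.236, adjusted p = 0.000322 with edgeR).

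*TGFBR2* (ENSG00000163513, chromosome 3, 30648093 to 30735634, plus strand, 7 exons) encodes the type II receptor that binds TGF-beta. It stood at 102, 123 and 104 CPM in A549-NEO and at 130.4, 127 and 90.0 CPM in A549-HOXC6, and the spread of the HOXC6 libraries covered that of the NEO libraries. In PC9 it stood at 43.0, 49.2 and 44.5 CPM with the empty vector and at 48.5, 49.8 and 46.3 CPM with HOXC6. No change was detected in A549 (log2 fold change 0.05, 95% interval -0.21 to 0.30) or in PC9 (0.08, 95% interval -0.20 to 0.35). The receptor gene was higher in A549-NEO than in PC9-NEO (log2 difference 1.25, SE 0.134).

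*SMAD3* (ENSG00000166949, chromosome 15, 67356101 to 67487511, plus strand, 9 exons), the transducer of TGF-beta and activin signals, moved in opposite directions in the 2 lines. Its level was 954, 938 and 973 CPM in A549-NEO and 815, 832 and 799 CPM in A549-HOXC6. In PC9 it was 167, 208 and 179.5 CPM with the empty vector and 268, 239 and 276 CPM with HOXC6. The HOXC6 libraries lay all below the NEO libraries in A549 and all above them in PC9. *SMAD3* fell in A549 (log2 fold change -0.27, SE 0.0714, adjusted p = 0.00411 with edgeR) and rose in PC9 (0.51, SE 0.0857, adjusted p = 3.61e-05 with edgeR). The difference of these changes was -0.73 (SE 0.114, 95% interval -0.95 to -0.51, adjusted p = 6.88e-06 with edgeR), and it passed under every alternative run, from -0.82 to -0.67. *SMAD3* was 5.13-fold higher in A549-NEO than in PC9-NEO, and with HOXC6 the levels still lay apart, at 815 ± 16.3 CPM in A549 and 261 ± 19.8 CPM in PC9.

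*SMAD7* (ENSG00000101665, chromosome 18, 46446223 to 46477335, minus strand, 4 exons), the inhibitory SMAD, stood at 24.8, 32.6 and 26.3 CPM in A549-NEO and at 55.2, 36.6 and 34.6 CPM in A549-HOXC6. All HOXC6 libraries lay above the NEO libraries, with replicate 1 far above the other two. The gene rose in A549 (log2 fold change 0.61, SE 0.191, adjusted p = 0.0130 with edgeR), but the value was 0.31 without A549-HOXC6 replicate 1 (adjusted p = 0.265 with edgeR). It did not pass with the GC correction either (0.43, adjusted p = 0.0817 with edgeR). Without A549-NEO replicate 1 (0.51, adjusted p = 0.0784) or A549-NEO replicate 3 (0.57, adjusted p = 0.0503) the log2 fold change was about as large but short of the threshold, in fits with edgeR. In PC9 the levels were 26.9, 29.1 and 22.0 CPM with the empty vector and 25.9, 32.9 and 21.0 CPM with HOXC6 (log2 fold change -0.01, 95% interval -0.41 to 0.38). The difference between the lines was 0.67 (95% interval 0.11 to 1.23, adjusted p = 0.0960 with edgeR), short of the threshold, and 0.81 without A549-HOXC6 replicate 3 (adjusted p = 0.0366 with edgeR). *SMAD7* was the only one of the 10 genes that did not pass between A549-NEO and PC9-NEO (log2 difference 0.10, SE 0.203, adjusted p = 0.678 with edgeR).

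*ID1* (ENSG00000125968, chromosome 20, 30193086 to 30194318, plus strand, 2 exons) encodes an inhibitor of basic helix-loop-helix transcription factors. It stood at 490.5, 482 and 515 CPM in A549-NEO and at 467, 484 and 624 CPM in A549-HOXC6, where replicate 3 lay above the other libraries. These groups overlapped, and no change was detected (log2 fold change 0.04, 95% interval -0.13 to 0.22), a value that turned to -0.01 when scaled by library size only and to -0.19 (adjusted p = 0.0234 with edgeR) with the GC correction. In PC9 it stood at 33.9, 24.6 and 27.9 CPM with the empty vector and at 43.7, 43.9 and 49.0 CPM with HOXC6. All PC9-HOXC6 libraries lay above the PC9-NEO libraries, and *ID1* rose with the largest log2 fold change of the 10 genes in PC9 (0.68, SE 0.163, adjusted p = 0.00204 with edgeR). The changes differed between the lines (-0.59, 95% interval -0.95 to -0.24, adjusted p = 0.0174 with edgeR). This difference was lost without PC9-NEO replicate 2 (-0.50, adjusted p = 0.0785) and without PC9-HOXC6 replicate 3 (-0.52, adjusted p = 0.0795), in fits with edgeR. *ID1* was 17.2-fold higher in A549-NEO than in PC9-NEO, the largest difference of the genes above the floor in both lines.

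*ID3* (ENSG00000117318, chromosome 1, 23884417 to 23885992, minus strand, 3 exons), a relative of *ID1*, stood at 296, 261 and 252 CPM in A549-NEO and at 227, 223 and 289.8 CPM in A549-HOXC6. It stood at 48.9, 62.3 and 54.2 CPM in PC9-NEO and at 60.0, 61.5 and 68.8 CPM in PC9-HOXC6. The groups overlapped within both lines, and neither comparison passed (log2 fold change -0.17, 95% interval -0.36 to 0.03 in A549, and 0.22, 95% interval -0.04 to 0.48 in PC9). Without A549-HOXC6 replicate 3 the value in A549 was -0.29 (adjusted p = 0.00596 with edgeR), and with the GC correction it was -0.41 (adjusted p = 9.97e-05 with edgeR). The signs of both values matched those of *SMAD3*, but the difference between the lines did not pass for *ID3* (-0.34, 95% interval -0.67 to -0.01, adjusted p = 0.158 with edgeR). That difference was -0.48 without A549-HOXC6 replicate 3 (adjusted p = 0.0202 with edgeR) and -0.44 with the GC correction (adjusted p = 0.0295 with edgeR). *ID3* was 4.86-fold higher in A549-NEO than in PC9-NEO.

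The upstream sequences of *SMAD3*, *ID1* and *ID3* are given because *SMAD3* and *ID1* were the members whose change differed between the lines and *ID3* is the related target that did not pass. They run from 250 to 11 bases before an annotated start, 5′ to 3′ on the strand of the gene. They were taken from RefSeq promoters (table build GRCh38.p14), each of which matched GRCh37 exactly once, and positions are those of GRCh37. Capitals mark matches on either strand to CAGAC (a SMAD element, GTCTG on the other strand) or GGCGCC (a GC-rich SMAD element). Of *SMAD3*'s 5 promoters the most upstream is shown, at chr15:67357690-67357929 on the plus strand. *ID1* is at chr20:30192842-30193081 on the plus strand and *ID3* at chr1:23886003-23886242 on the minus strand.
SMAD3: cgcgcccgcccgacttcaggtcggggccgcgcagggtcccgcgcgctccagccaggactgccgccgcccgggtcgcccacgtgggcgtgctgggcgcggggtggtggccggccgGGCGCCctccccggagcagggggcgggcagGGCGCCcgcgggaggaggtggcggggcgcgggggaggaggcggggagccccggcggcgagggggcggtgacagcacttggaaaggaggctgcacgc
ID1: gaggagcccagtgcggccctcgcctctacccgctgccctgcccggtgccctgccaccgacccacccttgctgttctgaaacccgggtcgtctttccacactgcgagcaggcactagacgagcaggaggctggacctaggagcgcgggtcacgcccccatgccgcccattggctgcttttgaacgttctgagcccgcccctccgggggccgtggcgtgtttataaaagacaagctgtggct
ID3: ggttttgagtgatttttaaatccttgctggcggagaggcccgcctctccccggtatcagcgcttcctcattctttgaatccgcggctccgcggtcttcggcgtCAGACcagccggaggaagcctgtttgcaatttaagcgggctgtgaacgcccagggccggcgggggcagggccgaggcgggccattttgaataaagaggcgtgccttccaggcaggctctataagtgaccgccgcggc
The *SMAD3* sequence holds GGCGCC at 2 places, the *ID3* sequence holds CAGAC at 1 place, and the *ID1* sequence holds neither motif. The homeodomain core TAATTA is in none of the 3 sequences. Over whole windows of 300 bases, from 250 before to 50 after the start, 9 of the 10 genes had a promoter in the table and 18 promoters in all. CAGAC was found in 11 of these 18 (6 genes), GGCGCC in 2 (*BMP4* and *SMAD3*) and TAATTA in 1, another promoter of *SMAD3*. Among 27305 promoters of that length, 1 per gene, 45% held CAGAC, 19% GGCGCC and 4.98% TAATTA. A match describes these letters only and says nothing on binding.

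Counted together, 5 of 9 genes tested in A549 passed an adjusted p under 0.05, 2 higher (*TGFB1* and *SMAD7*) and 3 lower (*BMP7*, *TGFB2* and *SMAD3*). Of all 8771 genes tested there, 18.9% were higher and 20.7% lower. In PC9, 3 of 9 passed, all higher (*TGFB1*, *SMAD3* and *ID1*), where 13.3% of 8419 genes were higher and 14.2% lower. The median log2 fold change was 0.04 in A549 and 0.08 in PC9, beside -0.000467 and -0.00463 for all genes. In A549 the HOXC6 libraries of 2 genes lay all above and those of 3 genes all below the NEO libraries, as they did for 26.4% and 23.9% of all genes tested (50.3% in all). In PC9 they lay all above for 2 genes (*SMAD3* and *ID1*) and all below for 1 (*INHBA*), beside 19.3% and 20.5% of all genes (39.8% in all). Of the 8 genes above the floor in all groups, the changes of *SMAD3* and *ID1* differed between the lines, both lower in A549, where 8.44% of 9229 genes differed in that direction and 10.9% in the other (19.4% in all). With the GC correction, 1 gene was higher in A549 (*TGFB1*) and 4 were lower (*BMP7*, *SMAD3*, *ID1* and *ID3*), 2 were higher in PC9 (*SMAD3* and *ID1*), and *TGFB1* (0.29, adjusted p = 0.0251 with edgeR) and *ID3* joined *SMAD3* and *ID1* in the difference between the lines. The shares of all genes above are from fits without this correction. None was taken with it, so the corrected counts cannot be set against a share.

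**Figure D2:**
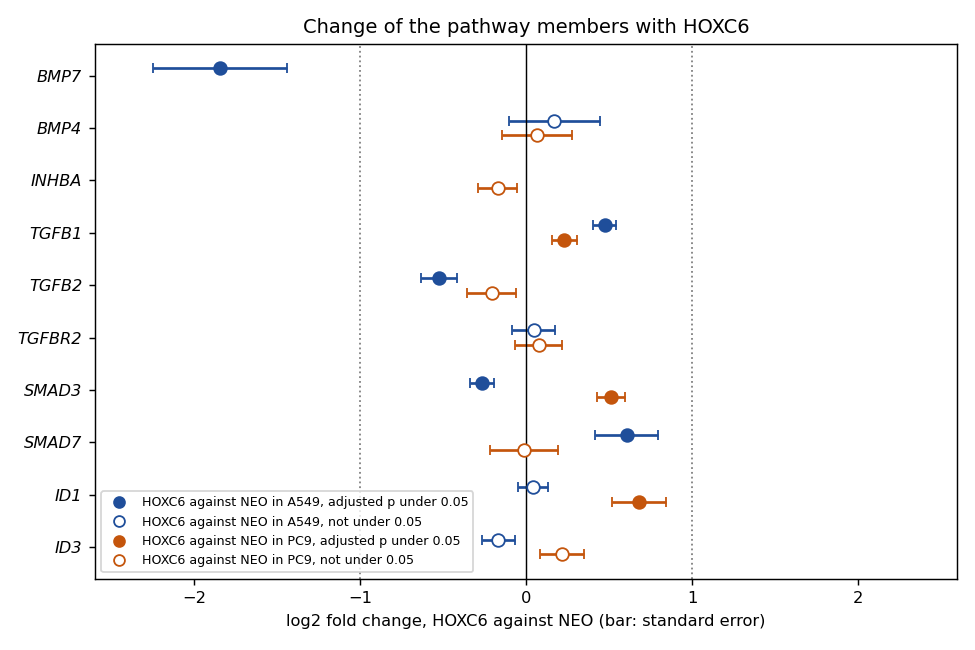
Log2 fold change of HOXC6 against NEO (horizontal axis, bar: standard error) for each of the 10 genes in A549 (blue) and PC9 (orange), filled where the adjusted p was under 0.05, with dotted lines at a log2 fold change of 1 and -1. *BMP7* in A549, at -1.85, lies beyond the dotted lines, and *SMAD3* has filled points on both sides of 0. *BMP7* has no point in PC9 and *INHBA* none in A549.

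Levels were compared between genes per kilobase of exon. In A549-NEO *ID1* led with 402 ± 14.1 CPM per kb (SD, n = 3), followed by *TGFB1* with 355 ± 16.0, *ID3* with 180.4 ± 15.6 and *SMAD3* with 95.4 ± 1.75. In that group no neighbours in the order overlapped. *TGFB2*, *TGFBR2*, *SMAD7*, *BMP4* and *BMP7* followed from 19.6 down to 2.12 CPM per kb, with *INHBA* last. In PC9-NEO *TGFB1* led with 205 ± 24.7 CPM per kb, well above *ID3* with 36.9 ± 4.49, while *ID1* with 23.4 ± 3.81 and *SMAD3* with 18.5 ± 2.08 overlapped. *INHBA* followed with 10.2 ± 1.06 CPM per kb, and *TGFB2*, *BMP4*, *TGFBR2* and *SMAD7* lay between 8.47 and 6.59 with overlapping neighbours. With HOXC6, *TGFB1* came first in both lines, at 506 ± 26.7 CPM per kb in A549, where it overlapped *ID1* at 426 ± 69.9, and at 239.6 ± 23.8 in PC9.

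**Figure D3:**
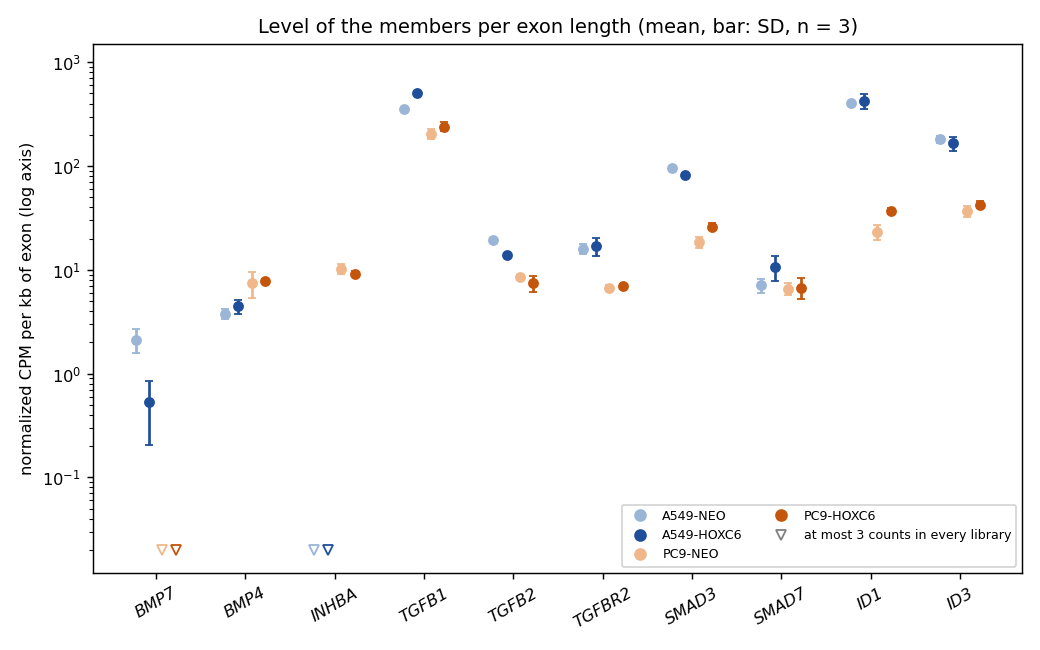
Mean level per kb of exon (vertical axis, log scale, normalized CPM per kb, bar: SD of 3 libraries) of the 10 genes in the 4 groups. *ID1* stands at 402 in A549-NEO and at 23.4 in PC9-NEO, while *TGFB1* stays at 205 CPM per kb or more in every group. Open triangles mark groups with at most 3 counts in every library, and their height has no meaning.

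Across the 4 groups, only *SMAD3* had levels at which no neighbouring groups overlapped, in the order A549-NEO, A549-HOXC6, PC9-HOXC6 and PC9-NEO. The *SMAD7* levels of A549-NEO, PC9-HOXC6 and PC9-NEO overlapped. Over the 12 libraries *SMAD3*, *ID1* and *ID3* correlated with Pearson's r of 0.986 to 0.988 with each other, which follows the split between lines that all libraries share. The gene most like *SMAD3* was *FOSL2* (r = 0.997, and 0.467 for deviations from the group means), the gene most like *ID1* was *EEF1B2* (0.998 and 0.727) and that most like *ID3* was *RELB* (0.996 and 0.694). For *TGFB1* it was *SHLD2* (0.988 and 0.891), for *INHBA* *CDK14* (0.999 and 0.937) and for *TGFBR2* *HLF* (0.992 and 0.904). For *BMP7* it was *INTS2* (0.989 and 0.823), for *BMP4* *MGAT1* (0.947 and 0.658) and for *SMAD7* *GSR* (0.929 and 0.858). These are descriptions over 12 libraries that share depth and cell line.

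Of 109 other genes listed for the same pathways, 88 were in the table. In A549, 61 were tested, 21 were higher and 10 lower (50.8% passed), with a median log2 fold change of 0.15. Of all genes tested there, 18.9% were higher and 20.7% lower (39.6% in all). In PC9, 55 were tested, 12 were higher and 6 lower (32.7% passed), with a median of 0.12. Of all genes tested there, 13.3% were higher and 14.2% lower (27.5% in all). By role, 5 ligands were higher and 1 lower of 8 tested in A549, beside 1 and 0 of 8 in PC9. Of receptors, 1 was higher and 1 lower of 9 in A549 and 1 higher and 0 lower of 9 in PC9. Of extracellular regulators, 7 were higher and 2 lower of 15 in A549 and 2 higher and 1 lower of 11 in PC9. Of SMADs and intracellular regulators, 5 were higher and 3 lower of 13 in A549 and 1 higher and 2 lower of 13 in PC9. Of target genes, 3 were higher and 3 lower of 16 in A549 and 7 higher and 3 lower of 14 in PC9. Few genes were tested per role, and whether the counts of a role differ from the shares of all genes was not tested. Whether these counts differ between the lines was not tested for any list either.

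Of these genes, 6 also passed a log2 fold change of 1 in either direction in a line, 5 of them in A549, 4 up and 1 down of 61 tested, and 2 in PC9, both down of 55 tested. Of all genes, 1.7% passed it upward and 5.51% downward in A549 (7.21% in all), and 0.962% upward and 3.56% downward in PC9 (4.53% in all). *GREM1*, a secreted BMP antagonist, rose in A549 from 2.78 ± 0.763 to 11.4 ± 1.62 CPM (log2 fold change 1.95, SE 0.389, adjusted p = 0.000236 with edgeR). Its counts were few, with 5 to 9 in each A549-NEO library and at most 5 in any PC9 library. It passed the filter on low counts only through A549-HOXC6, the group where it was high, so its call is not independent of that filter. The difference of *GREM1* between the lines did not pass (1.55, adjusted p = 0.306 with edgeR). *BAMBI*, a pseudoreceptor that inhibits the pathway, rose in A549 from 29.1 ± 2.71 to 95.7 ± 11.9 CPM (1.67, SE 0.146). *THBS1*, whose product can activate latent TGF-beta, rose from 23.0 ± 4.01 to 68.5 ± 8.29 CPM (1.55, SE 0.170). In PC9 the values were -0.26 for *BAMBI* (adjusted p = 0.542) and -0.25 for *THBS1* (adjusted p = 0.175), and the lines differed in both genes (1.96, adjusted p = 7.68e-06, and 1.84, adjusted p = 5.06e-08, with edgeR). *GDF15*, a divergent member of the ligand family that responds to cell stress, fell in A549 from 835 ± 31.8 to 281 ± 39.5 CPM (-1.61, SE 0.0874, adjusted p = 7.33e-14 with edgeR).

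*CTGF*, a matrix gene induced by TGF-beta, moved in opposite directions. It rose in A549 from 10.2 ± 3.21 to 22.8 ± 9.08 CPM (log2 fold change 1.18, SE 0.284, adjusted p = 0.00167 with edgeR) and fell in PC9 from 17.0 ± 2.54 to 7.39 ± 2.62 CPM (-1.14, SE 0.297, adjusted p = 0.00418 with edgeR). The difference between the lines was 2.36 (adjusted p = 6.80e-05 with edgeR). *SKIL*, which encodes the SMAD corepressor SnoN, fell in PC9 from 40.3 ± 7.99 to 18.9 ± 5.70 CPM (-1.10, SE 0.206, adjusted p = 0.000147 with edgeR). In A549 its value was also negative but did not pass (-0.52, adjusted p = 0.0852 with edgeR). The difference of *SKIL* between the lines did not pass (0.63, adjusted p = 0.190 with edgeR), except without A549-HOXC6 replicate 3 (0.92, adjusted p = 0.0295 with edgeR). Several single libraries decide whether *CTGF* and *SKIL* exceed 1 on the log2 scale, though each kept an adjusted p under 0.05 without them. The value of *CTGF* was 0.92 without A549-NEO replicate 1 and 0.89 without A549-HOXC6 replicate 3 in A549 (and 0.97 with the GC correction), and -0.90 without PC9-HOXC6 replicate 1 in PC9. That of *SKIL* was -0.94 without PC9-NEO replicate 2 and -0.88 without PC9-HOXC6 replicate 1. The fall of *SKIL* did not pass after the GC correction (-0.47, adjusted p = 0.100 with edgeR). Exons of *GREM1*, *THBS1* and *CTGF* overlap exons of the other strand over 367, 694 and 278 bases, as do those of *BMP4* (506), *INHBA* (248), *TGFB1* (215), *TGFB2* (701) and *SMAD3* (182). Since the strand setting of the counting is not given in the sources used here, reads of such partners may be among their counts.

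**Figure D4:**
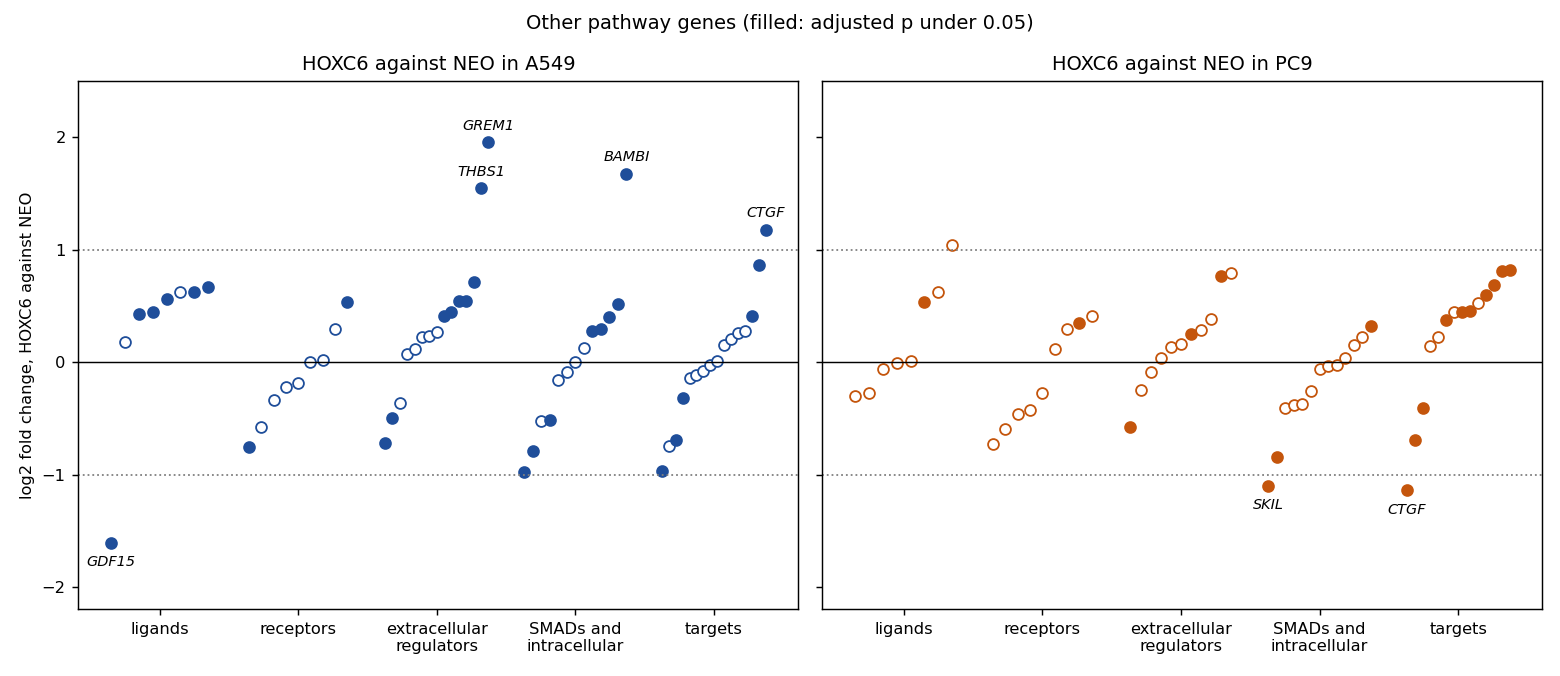
Log2 fold change of HOXC6 against NEO (vertical axis) for the other pathway genes tested in A549 (left, 61 genes) and PC9 (right, 55 genes), grouped by role and sorted by value within each role. Filled points had an adjusted p under 0.05, dotted lines mark 1 and -1, and the named genes passed both limits, with *CTGF* above 1 in A549 and below -1 in PC9.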

How the data were processed

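RNA-seq of A549-NEO, A549-HOXC6, PC9-NEO and PC9-HOXC6 was analysed, 3 libraries each, grouped by their labels. The deposited table gives the read counts that the authors obtained for each gene, not normalized, in 1 column for each library. The authors used poly(A) RNA, a directional library kit and paired reads, HISAT2 (2.1.0) on GRCh37.p13 and HTSeq (0.9.1), with versions from the submitters' processing notes. The strand setting and annotation release are not given in the sources used here, and neither is removal of PCR duplicates, so floors cover counting error only. The table used here holds 12584 complete genes, and 1 incomplete last entry was left out. Scaling, filtering and adjustment were done over these genes.

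The pathway genes and gene lists were chosen with earlier results of these data known. Names, positions, merged exon lengths and GC content came from GENCODE on GRCh37 (12463 genes matched). After filterByExpr had dropped genes of low count and TMM factors had been set, edgeR (4.0.16, in R 4.3.3) was used to compare groups with its quasi-likelihood test, with p-values adjusted by Benjamini-Hochberg over all genes tested, within each line over 6 libraries, and over 12 libraries for the difference between lines and for A549-NEO against PC9-NEO. Genes passed if the adjusted p was under 0.05, and a change of more than 1 on the log2 scale in either direction was given as a further limit. All 10 pathway genes were named, and of the other listed genes those past both limits in a line, up to 6 per list. Other genes are given in counts, and a few items are not reported here. Standard errors were derived from each change and its F statistic, and 95% intervals span 1.96 standard errors on each side. Levels are CPM on TMM-scaled totals, with the SD over libraries. Fold changes against groups with at most 3 counts in every library are lower bounds with 3 counts per library. Replicate numbers were not used as a block. Libraries of 1 group differed by more than sampling noise (chi-square per degree of freedom 1.59 to 4.41), so none was counted as a repeat.

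The alternatives were DESeq2 (1.42.0), RLE size factors, library totals in place of TMM, no filter, at least 10 counts in every library, the replicate number as a block, a GC correction (smooth trends with GC content and exon length taken out of each library, mgcv 1.9.3), the same with the block, other sets of libraries in the fit, and leaving out each library. The tests were checked on simulated counts.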

Additional observations from a re-analysis of the deposited data

Results flagged for a closer look

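The change with HOXC6 differed between A549 and PC9 by the test of the difference itself (edgeR's quasi-likelihood interaction over 12 libraries, adjusted p under 0.05) for *SMAD3* and *ID1* among the 10 genes and for 15 of the 65 other listed pathway genes tested, 8 higher and 7 lower. That is 23.1% of them, beside 19.4% of all genes tested (10.9% higher and 8.44% lower), and 14 of the 15 are given here. Values are the change in A549 minus the change in PC9 on the log2 scale. For *SMAD3* it was -0.73 and for *ID1* -0.59. Among ligands it was 0.73 for *GDF9*, 0.48 for *INHBB* and -1.29 for *GDF15*. Among extracellular regulators it was 1.84 for *THBS1*, 0.72 for *FSTL1*, 0.68 for *LTBP1*, -1.22 for *LTBP4* and -1.47 for *LRRC32*. Among intracellular regulators it was 1.96 for *BAMBI* and 0.41 for *PMEPA1*. Among target genes it was 2.36 for *CTGF*, -0.39 for *TGFBI*, -0.80 for *BHLHE40* and -1.52 for *CDKN1A*.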

How the results depend on the processing

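The changes of *BMP7*, *TGFB1* and *SMAD3* in A549, of *SMAD3* and *ID1* in PC9 and of *SMAD3* between the lines kept their direction and passed under every alternative that tested them. *BMP7* was not tested with at least 10 counts in every library, and in the main fit it was tested only through its high group, A549-NEO. Of 51 results for single genes, 25 never turned or crossed the threshold and 13 turned under some alternative. Over all genes, replicate numbers showed no pairing. Deviations from the group means correlated with a mean r of 0.00161 between same-numbered libraries in A549 and 0.0210 in PC9. For different numbers it was -0.00087 and -0.0104. This does not exclude pairing for a single gene. *TGFB1* in PC9 passed with the replicate block (0.23, adjusted p = 0.00011 with edgeR). With the GC correction added to the block it did not (0.09, adjusted p = 0.212 with edgeR). Under the replicate block, *TGFB1* passed for the difference between the lines (1 gene higher), *SKIL* passed in A549, *SMAD7* was 0.0195 in PC9, and no other call changed among the 10 genes and *GDF15*, *GREM1*, *THBS1*, *BAMBI*, *CTGF* and *SKIL*, the genes for which alternatives were run.

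Leaving out 1 library gave 129 to 183 genes called up and 396 to 634 called down in A549 (149 and 483 with all), 78 to 109 and 267 to 315 in PC9 (81 and 300), 227 to 289 and 192 to 262 for the difference between lines (255 and 220) and 1784 to 1840 and 1597 to 1688 for A549-NEO against PC9-NEO (1779 and 1612). Of the 10 genes, it gave 1 to 2 higher and 3 to 4 lower in A549, 2 to 3 higher in PC9, and 0 to 1 higher and 1 to 3 lower for the difference. With at least 10 counts in every library, fewer genes were tested, and 95 were called up in A549, 52 up and 181 down in PC9, 134 down for the difference, and 931 up and 937 down between the NEO groups, where 1 of the 10 genes was lower. With the GC correction, calls down numbered 151 in A549 (146 with the block) and 102 in PC9 (102 with the block), and of the 10 genes 1 was higher in A549 with either. For the difference, 1 gene (*TGFB1*) was higher with library-size scaling, with no filter, and with the GC correction alone or with the block. No share of all genes was taken beside the counts of the 10 genes in these runs, and the causes were not tested.

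With the GC correction, values turned to -0.0374 for *BMP4*, -0.19 for *ID1* and 0.20 for *SKIL* in A549, and to -0.0206 for *BMP4*, 0.14 for *INHBA* and 0.0214 for *TGFB2* in PC9. With the block added these were -0.0363, -0.19, 0.15, -0.0126, 0.13 and 0.0351. With library-size scaling, *ID1* was -0.0056 in A549, and *BMP4* was -0.0196 and *TGFBR2* -0.0079 in PC9. That scaling also moved the median log2 fold change of all genes, from -0.000467 to -0.0459 in A549 and from -0.00463 to -0.0876 in PC9. *TGFB1* in PC9 did not pass with DESeq2, with a fold about as large (0.23, adjusted p = 0.0657), or with library-size scaling (0.15, adjusted p = 0.140), and DESeq2 gave 0.0092 for *SMAD7* in PC9. *TGFBR2* turned for the difference with DESeq2 (-0.0361), RLE (-0.0327) and the 10-count minimum (-1e-04). Without 1 library, values ran from -0.0805 to 0.2153 for *TGFBR2* and from -0.0883 to 0.1303 for *ID1* in A549, from -0.1214 to 0.2771 for *BMP4* and from -0.1501 to 0.1778 for *SMAD7* in PC9, and from -0.0234 to 0.1906 for *SMAD7* between the NEO groups. For the difference they ran from -0.0651 to 0.3316 for *BMP4*, from -0.1042 to 0.1686 for *TGFBR2* and from -0.1352 to 2.0399 for *GREM1*. The value of *CTGF* was 0.89 at lowest in A549 (without A549-HOXC6 replicate 3) and -0.90 at highest in PC9 (without PC9-HOXC6 replicate 1), where that of *SKIL* was -0.88.

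Depth limits the genes of few counts, since *BMP7* in A549-HOXC6 rests on 1 to 11 counts per library, *GREM1* in A549-NEO on 5 to 9 and *BMP4* on 16 to 76. With at least 10 counts required in every library, neither *BMP7* nor *GREM1* was tested in A549.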

Other observations

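Further genes of the pathway lists had opposite changes that each passed in both lines. *CDKN1A*, the cell cycle inhibitor p21, had a log2 fold change of -0.97 in A549 and 0.59 in PC9, and *LTBP4*, a latent TGF-beta binding protein, -0.49 in A549 and 0.77 in PC9. *FN1*, which encodes fibronectin, rose in both lines (0.86 and 0.81), and *ZFYVE16*, an endosomal SMAD adaptor, fell in both (-0.79 and -0.85). These genes were chosen after their values were seen, and no alternative, the GC correction included, was run for any of them. Exons of *ZFYVE16* overlap exons of the other strand over 5097 of 15490 bases, so reads of such partners may be among its counts. Its GC content is low, at 37.1%.

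Other pathway genes were at the floor in both groups of 1 line, as *BMP7* and *INHBA* were, and some of them are given here. *FST*, which binds activin, was at least 11.5-fold higher in A549-NEO than in PC9-NEO. *CDKN2B*, the cell cycle inhibitor p15 and a TGF-beta target, was at least 67.3-fold higher in PC9-NEO than in A549-NEO. *ID2*, a relative of *ID1* and *ID3*, was at the floor in PC9-NEO and held at most 7 counts in a PC9-HOXC6 library, and its level in A549-NEO exceeded that in PC9-NEO by at least 113-fold. In A549, *ID2* fell with HOXC6 (log2 fold change -0.32, adjusted p = 0.0148 with edgeR), where the values for *ID1* and *ID3* did not pass. With the GC correction, *ID1* (-0.19, adjusted p = 0.0234) and *ID3* (-0.41, adjusted p = 9.97e-05) were lower in A549 too, in fits with edgeR. No corrected value was taken for *ID2*, and whether the changes of these genes differ was not tested.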
